A study of Mus musculus with 144 samples.

Results

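Liver RNA of wild-type mice was compared between the late light phase and the late dark phase. The members are the 12 total RNA libraries of the wild type taken at ZT10 (n = 6) and at ZT22 (n = 6), out of 144 libraries in the series. Zeitgeber time (ZT) counts hours from lights on, so ZT10 lies 2 h before the dark phase and ZT22 lies 2 h before the light phase. All animals were labelled as male C57BL/6J mice, kept in 12 h of light and 12 h of darkness with food and water always at hand, so feeding time was not fixed. Each library held the 3′ ends of polyadenylated RNA, counted once per gene and once per polyadenylation site. Libraries used beside these were total RNA of Bmal1-/- mice of the same strain, housing and times (6 and 6), and nuclear and polysomal RNA of the wild type at the same times (6 and 6 each). The labels do not say which part of Bmal1 is deleted, whether the deletion is confined to a tissue, or whether libraries of different RNA fractions came from the same livers.

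The circadian clock of mammals is a transcriptional loop. BMAL1 (gene symbol Arntl) pairs with CLOCK or NPAS2 and activates genes through E-box elements, among them the Per and Cry genes, whose proteins then repress the pair. A second arm holds the REV-ERB repressors (Nr1d1, Nr1d2) and the ROR activators, which act on Arntl itself, and a further arm holds the activators DBP, TEF and HLF and their opponent NFIL3, which share D-box elements. In the liver these arms set daily rhythms of genes of sterol, sugar, heme and drug metabolism, on which feeding rhythms also act.

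The 12 libraries held 6646766 to 9828730 counts in genes. No 2 libraries of a group were copies: the counts of every one of 30 pairs differed by more than sampling noise, with a chi-square of at least 11.2 per degree of freedom. The summed level of 7 hepatocyte marker genes was 57500 to 96800 CPM (counts of a library scaled to a common total) in every library, and the liver label was met. One library went against its label. ZT22 replicate 5 had 408 CPM of Xist, the RNA of the inactive X chromosome, where the other 11 libraries had at most 0.148 CPM. Its Ddx3y, a gene of the Y chromosome, was at 0.38 CPM, against 61.3 to 108 CPM in the others, and Eif2s3y, Kdm5d and Uty were at or below 0.254 CPM. Liver genes that differ between the sexes moved with it: Cyp2b9, a cytochrome P450, was at 141 CPM against at most 12.8 CPM, and Cyp4a12a, another, was at 8.75 CPM against at least 596 CPM. In this library 23 tested genes lay more than 4-fold above all other 11 libraries and 32 lay more than 4-fold below them, on CPM plus 1. Counted likewise, each of the other libraries had at most 2 genes above. ZT22 replicate 3 had 13 genes below, and the rest had 0. ZT22 replicate 5 was kept, as the labels place it, and results are given with and without it where it changes them. Of the 48 libraries of the 4 sets at these times, 4 had Xist above 100 CPM, all at ZT22. The second principal component, with 21% of the variance, separated replicates 1 to 3 from replicates 4 to 6 at both times, and the labels do not say what these sets are. The first, with 23.2%, separated the times, with ZT22 replicate 5 the farthest from ZT10.

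Across the transcriptome the 2 times differed in 752 of 12048 genes tested, which is 6.24% at an adjusted p under 0.05 (edgeR quasi-likelihood test, Benjamini-Hochberg over all genes). Of these, 374 (3.1% of genes tested) were higher at ZT10 and 378 (3.14%) were higher at ZT22. Without ZT22 replicate 5, 607 genes were called, 328 higher at ZT10 and 279 higher at ZT22, and 554 of them were among the 752. Most changes were modest, with a median of 1.76-fold among called genes. Changes of at least 2-fold were seen in 255 called genes (121 higher at ZT10) and changes of at least 4-fold in 58 (26 higher at ZT10). The CPM of the 6 and 6 libraries did not overlap in 513 genes, or 4.26% of those tested, and 435 of these were called. Within replicates 1 to 3 alone 235 genes were called, 192 of them among the 752, and within replicates 4 to 6 alone 503, of which 357 were among them.

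**Figure D1:**
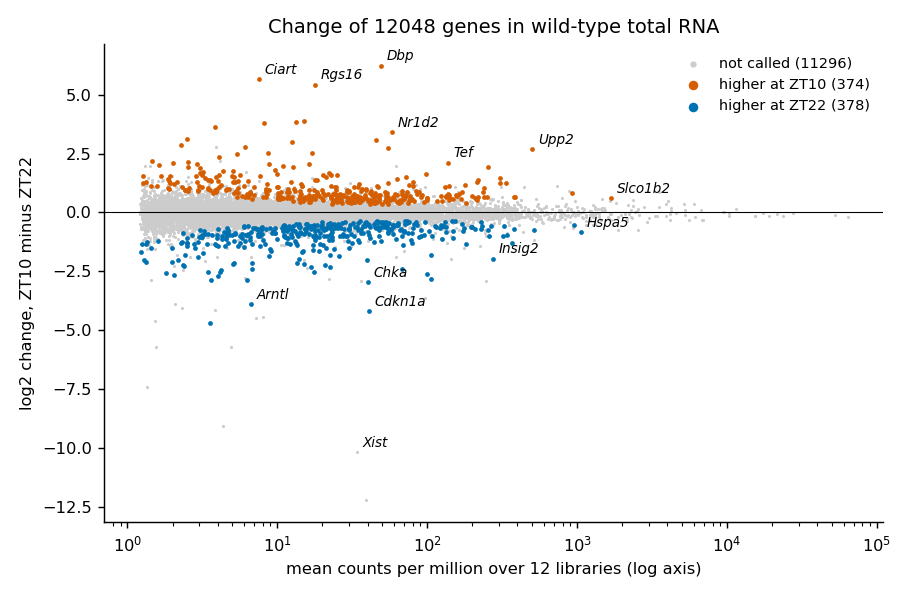
Log2 change from ZT22 to ZT10 (vertical axis) against the mean level over the 12 libraries in CPM (horizontal log axis) for 12048 genes. Orange points are the 374 genes called higher at ZT10, blue points the 378 called higher at ZT22, and grey points were not called. Dbp has the highest value, and Xist, far below 0 and not called, owes its value to ZT22 replicate 5.

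Most tested genes of the clock list were called. Of 22 tested members of the clock list, 11 were higher at ZT10 and 5 were higher at ZT22, against 6.24% of all genes called. Their median log2 change was 0.61, beside -0.005 over all genes tested. Both directions were found within the loop. Without ZT22 replicate 5 the counts were 12 and 4, with Per2 gained.

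The activators were low at ZT10. Arntl was at 0.251, 0.769 and 1.63 CPM (lowest, median, highest) at ZT10 and at 8.14, 12.4 and 19.3 CPM at ZT22. The ranges stood well apart, with a log2 change of -3.88 ± 0.32 (SE; adjusted p 2.04e-06), a 14.7-fold difference. Clock ran from 15.8 to 26.5 CPM at ZT10 and from 42.0 to 52.8 CPM at ZT22, 2.25-fold higher at ZT22 (adjusted p 2.49e-05). Npas2, which can stand in for Clock, had too few counts for the test. It reached at most 0.251 CPM at ZT10 and lay between 1.32 and 2.71 CPM at ZT22, so that its libraries did not overlap either.

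Repressors that act at E-boxes were mostly high at ZT10, and Cry1 was the exception. Ciart, which encodes the repressor CHRONO, was at 10.5, 15.6 and 19.4 CPM at ZT10 and at 0.133, 0.25 and 0.407 CPM at ZT22. Every ZT10 library was thus above every ZT22 library, and the log2 change was 5.65 ± 0.28 (adjusted p 7.79e-09), or 50.4-fold. Per3 ran from 21.7 to 37.6 CPM at ZT10 and from 0.855 to 5.2 CPM at ZT22 (log2 change 3.89 ± 0.34, adjusted p 8.51e-06). The value of 5.2 CPM was that of ZT22 replicate 5, and without it the log2 change was 4.52. Per1 was 4.17-fold higher at ZT10 (11.1 to 18.9 CPM against 1.17 to 7.43 CPM, adjusted p 0.0028). Bhlhe41, the gene of the repressor DEC2, was at 2.32 to 14.5 CPM at ZT10 and at most at 1.19 CPM at ZT22 (log2 change 3.61 ± 0.63, adjusted p 0.00343). Its relative Bhlhe40 changed less, 1.98-fold, and its ranges overlapped (adjusted p 0.0102).

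Per2 turned on 1 library. At ZT10 it was at 21.0, 42.4 and 50.9 CPM, and at ZT22 at 6.61, 15.5 and 40.3 CPM, the last being ZT22 replicate 5. With all libraries its log2 change was 1.04 ± 0.35 (adjusted p 0.113) and it was not called. Without that library its ZT22 range ended at 20.6 CPM, below every ZT10 library, and the log2 change was 1.42 ± 0.28 (adjusted p 0.00979). Cry2 was 1.55-fold higher at ZT10 (15.4 to 23.2 CPM against 8.17 to 15.1 CPM, adjusted p 0.0258). Its call was kept in 8 of the 12 fits that left out 1 library (adjusted p up to 0.0621). Cry1, the other cryptochrome, ran the other way, from 4.98 to 10.3 CPM at ZT10 and from 22.9 to 47.0 CPM at ZT22. Its log2 change was -2.31 ± 0.20 (adjusted p 4e-06), so the 2 cryptochrome genes were called in opposite directions.

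In the second arm both REV-ERB genes were high at ZT10. Nr1d2 was at 88.8, 107 and 122 CPM at ZT10 and at 4.36, 10.01 and 16.2 CPM at ZT22, with no overlap and a log2 change of 3.41 ± 0.28 (adjusted p 5.95e-06). Nr1d1 was more variable, at 9.79 to 50.01 CPM against 0.254 to 2.8 CPM, with a larger error on its log2 change of 3.82 ± 0.61 (adjusted p 0.0028). Rora, which encodes a ROR activator, at 89.5 to 134 CPM and 110 to 142 CPM, had a log2 change of -0.25 ± 0.12 and was not called (adjusted p 0.267).

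The D-box arm held the gene with the largest rise. Dbp was at 64.9, 92.5 and 137 CPM at ZT10 and at 0.712, 1.17 and 2.12 CPM at ZT22, a log2 change of 6.22 ± 0.29 (adjusted p 7.79e-09) or 74.7-fold. The lowest ZT10 library exceeded the highest ZT22 library by far. Tef was 4.30-fold higher at ZT10 (188 to 280 CPM against 30.9 to 67.1 CPM, adjusted p 3.83e-06). Hlf was 1.5-fold higher at ZT10 (59.9 to 89.0 CPM against 33.7 to 58.0 CPM, adjusted p 0.0129). The opponent Nfil3 went the other way, from 4.25 to 6.95 CPM at ZT10 and from 20.8 to 35.5 CPM at ZT22 (log2 change -2.33 ± 0.18, adjusted p 8.62e-07). The kinase genes Csnk1d and Csnk1e and the ubiquitin ligase gene Btrc, whose products modify clock proteins, were not called, with log2 changes of 0.02, -0.35 and 0.02, and Fbxl21 had too few counts.

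**Figure D2:**
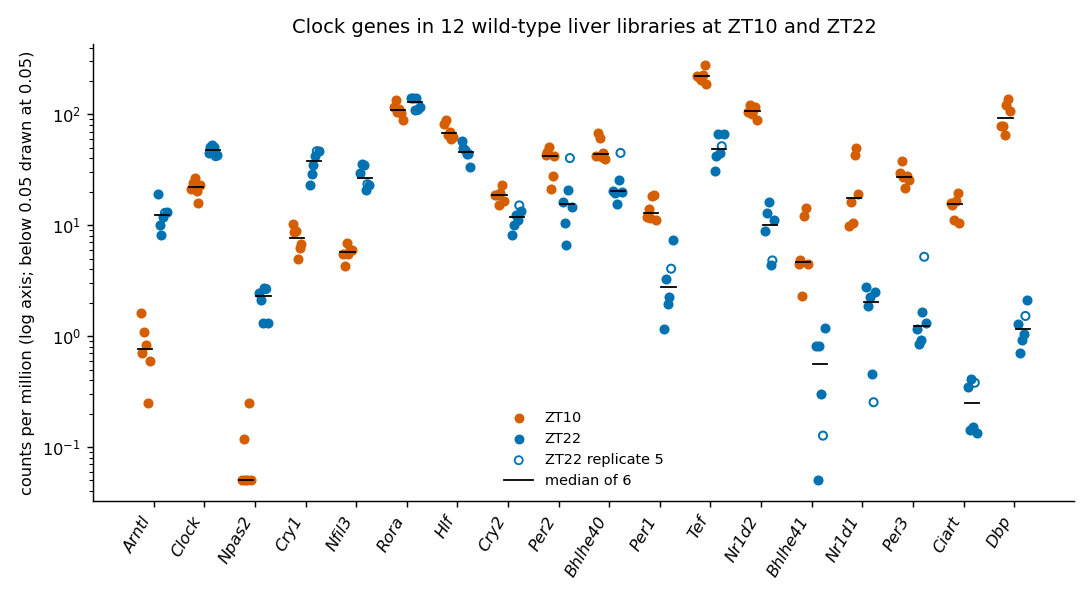
CPM (log axis) of 18 clock genes in each wild-type total RNA library, orange for ZT10 and blue for ZT22, with a black bar at the median of 6 and an open circle for ZT22 replicate 5. Genes with the higher median at ZT22, from Arntl to Rora, stand on the left. Genes with the higher median at ZT10, up to Dbp, stand on the right. Rora and Per2 were not called, and Npas2 was not tested. The open circle lies among the ZT10 points for Per2 and Bhlhe40.

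Promoter sequences are shown for the clock genes above in which an exact clock element was found. They come from RefSeq (GRCm38.p6), whose windows of 250 bases before to 50 bases after a start covered 60 of the 72 named genes. Searched on both strands were the E-box CACGTG, the D-box TTANGTAA and the ROR element TAGGTCA, to which REV-ERB proteins also bind, and no motif overlapped another in the stretches below. Capitals mark these motifs, each stretch is the 250 bases before the start read on the strand of the gene, and positions count back from the start. Ciart (chr3:95882229-95882478, minus strand) had 3 E-boxes, at -116, -58 and -44. Per1 (chr11:69098699-69098948, plus strand) had 1 E-box at -166, Tef (chr15:81802423-81802672, plus strand) 1 at -127, Bhlhe41 (chr6:145865421-145865670, minus strand) 1 at -153 and Cry1 (chr10:85185055-85185304, minus strand) 1 at -60. Per3 (chr4:151044666-151044915, minus strand) had 2 D-boxes, at -205 and -158. Nfil3 (chr13:52981040-52981289, minus strand) had 1 ROR element at -12.
Ciart: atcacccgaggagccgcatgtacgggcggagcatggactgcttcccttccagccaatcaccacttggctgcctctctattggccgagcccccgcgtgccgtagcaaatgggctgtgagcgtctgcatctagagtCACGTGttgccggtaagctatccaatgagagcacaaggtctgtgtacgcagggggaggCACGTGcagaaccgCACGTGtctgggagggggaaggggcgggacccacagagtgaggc
Per1: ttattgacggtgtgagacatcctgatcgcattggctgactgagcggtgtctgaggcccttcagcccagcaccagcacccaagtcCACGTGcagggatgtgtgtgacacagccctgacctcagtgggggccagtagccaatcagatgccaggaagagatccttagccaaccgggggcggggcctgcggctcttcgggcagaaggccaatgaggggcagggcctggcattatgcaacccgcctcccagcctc
Tef: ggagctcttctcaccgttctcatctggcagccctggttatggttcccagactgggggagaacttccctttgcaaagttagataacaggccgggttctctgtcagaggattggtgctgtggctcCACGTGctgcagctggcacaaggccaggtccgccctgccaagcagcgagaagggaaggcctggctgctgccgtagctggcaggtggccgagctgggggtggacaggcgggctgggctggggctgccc
Bhlhe41: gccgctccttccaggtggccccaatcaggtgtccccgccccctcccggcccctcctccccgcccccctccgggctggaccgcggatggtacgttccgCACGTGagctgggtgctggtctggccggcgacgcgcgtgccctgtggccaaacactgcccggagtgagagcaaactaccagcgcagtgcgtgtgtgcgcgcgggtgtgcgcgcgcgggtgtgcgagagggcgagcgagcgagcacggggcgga
Cry1: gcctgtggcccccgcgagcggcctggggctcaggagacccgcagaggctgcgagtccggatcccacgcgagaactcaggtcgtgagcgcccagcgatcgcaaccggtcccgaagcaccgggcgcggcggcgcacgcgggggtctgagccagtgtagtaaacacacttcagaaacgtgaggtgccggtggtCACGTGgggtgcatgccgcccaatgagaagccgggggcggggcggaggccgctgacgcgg
Per3: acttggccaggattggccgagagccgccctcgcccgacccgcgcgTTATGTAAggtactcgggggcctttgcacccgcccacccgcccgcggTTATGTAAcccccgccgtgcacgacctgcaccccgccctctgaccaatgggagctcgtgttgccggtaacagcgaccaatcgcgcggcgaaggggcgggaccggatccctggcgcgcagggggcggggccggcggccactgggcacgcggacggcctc
Nfil3: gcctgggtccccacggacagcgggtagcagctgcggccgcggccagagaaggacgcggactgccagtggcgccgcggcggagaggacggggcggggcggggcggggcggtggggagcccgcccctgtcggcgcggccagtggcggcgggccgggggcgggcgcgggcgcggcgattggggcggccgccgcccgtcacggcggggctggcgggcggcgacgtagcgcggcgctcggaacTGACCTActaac
Arntl had a ROR element just past one of its starts, shown with 30 bases (chr7:113207530-113207559, plus strand).
Arntl: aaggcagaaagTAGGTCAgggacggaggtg
The E-box was found in promoters of both directions, in Ciart, Per1, Tef and Bhlhe41, which were higher at ZT10, and in Cry1, which was higher at ZT22. Of the other named genes, Pfkfb3 (higher at ZT10), Ppp1r3c, Calr and Psen2 (higher at ZT22) also had one. The ROR element was found in Arntl and Nfil3, both higher at ZT22. Among all 32851 promoter windows 7.15% held the E-box, 2.32% the D-box and 2.61% the ROR element. Among windows of genes called higher at ZT10, 63 of 383 (16.4%) held the E-box, and among those of genes higher at ZT22, 34 of 371 (9.16%), beside 9.91% of the windows of all genes tested. The windows of the 2 directions belonged to 287 and 286 genes, so a gene with several starts counts more than once. For the D-box the shares were 3.13% and 2.43%, beside 1.68%, and for the ROR element 2.09% and 3.77%, beside 2.14%. Dbp, Nr1d1 and Nr1d2 had none of the 3 motifs in these windows. These counts describe letters and not bound sites.

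Of 25 tested genes listed as outputs of the clock, 10 were higher at ZT10 and 7 were higher at ZT22. Of all genes tested, 3.1% and 3.14% were. The list was drawn up with earlier results of these data known, so its share of called genes does not describe clock outputs in general. Rgs16, a regulator of G protein signalling, was at 4.01, 31.4 and 80.9 CPM at ZT10 and at 0, 0.173 and 3.85 CPM at ZT22 (log2 change 5.42 ± 0.98, adjusted p 0.00778). Its ranges came close, and the 3.85 CPM stood alone in ZT22 replicate 1, without which the log2 change was 7.91. Usp2, a ubiquitin protease gene, was 6.65-fold higher at ZT10 (76.6 to 127 CPM against 6.66 to 27.1 CPM, adjusted p 0.000328). Upp2, for uridine phosphorylase, was among the most abundant of the called genes. It ran from 551 to 1362 CPM at ZT10 and from 88.4 to 262 CPM at ZT22 (log2 change 2.68 ± 0.31, adjusted p 0.000203). Wee1, a kinase that holds back mitosis, was also higher at ZT10 (log2 change 1.96 ± 0.18, adjusted p 5.39e-06). Noct, for nocturnin, was the only called member among 33 cleavage, polyadenylation and poly(A) genes. Its log2 change was 1.80 (adjusted p 0.0467) and was 2.503 (adjusted p 0.000918) without ZT22 replicate 5. Its call was kept in 2 of the 12 fits that left out 1 library, that one and ZT10 replicate 5, and was lost in the others, with an adjusted p of up to 0.0986.

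On the ZT22 side of the outputs stood Cdkn1a, which encodes the cell cycle inhibitor p21. It was at 1.005, 4.28 and 8.60 CPM at ZT10 and at 42.6, 87.1 and 116 CPM at ZT22. The groups did not overlap, with a log2 change of -4.18 ± 0.51 (adjusted p 0.000462), the largest fall of the named genes. Avpr1a, a vasopressin receptor gene, was 5.68-fold higher at ZT22 (14.5 to 45.9 CPM against 1.71 to 9.94 CPM, adjusted p 0.00403). Insig2, which holds sterol sensing proteins in the endoplasmic reticulum (ER), was at 92.3 to 142 CPM at ZT10 and at 213 to 597 CPM at ZT22 (log2 change -1.97 ± 0.23, adjusted p 0.000148). Elovl3, a fatty acid elongase gene of this list, was not called with all 12 libraries (log2 change -2.91 ± 0.82, adjusted p 0.0643). It was at 27.1 to 87.7 CPM at ZT10 and at 364 to 656 CPM in 5 of the ZT22 libraries, but at 3.42 CPM in ZT22 replicate 5. Without that library its log2 change was -3.16 ± 0.32 (adjusted p 0.000109).

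Beyond these lists, several of the largest changes were in signalling and lipid genes. Gpcpd1, for an enzyme that cleaves glycerophosphocholine, was at 56.7 to 105 CPM at ZT10 and at 6.76 to 11.6 CPM at ZT22 (log2 change 3.05 ± 0.20, adjusted p 2.2e-07). Chka, for choline kinase, ran opposite, from 5.39 to 13.4 CPM at ZT10 and from 53.1 to 89.0 CPM at ZT22 (log2 change -2.95 ± 0.19, adjusted p 2.2e-07). Both enzymes handle choline, and both genes had groups that did not overlap. Nrg4, a growth factor gene, was 5.79-fold higher at ZT10 (9.35 to 19.3 CPM against 0.752 to 4.69 CPM, adjusted p 0.000139). Pcsk4, a proprotein convertase gene, was 5.67-fold higher and Clec2h, a lectin gene, 7.84-fold higher at ZT10. Tubb2a, a tubulin gene, rose at ZT22 to between 151 and 215 CPM from 11.4 to 43.8 CPM (log2 change -2.82 ± 0.32, adjusted p 0.000189). Clpx, the chaperone part of a mitochondrial protease, was 5.30-fold higher at ZT22 (adjusted p 1.45e-06). Lgalsl was 4.48-fold and Acnat2 4.64-fold higher at ZT22. Nt5e, the ectonucleotidase CD73, had a log2 change of -2.39, which fell to -1.70 (adjusted p 0.000438) without ZT22 replicate 5, where it reached 34.1 CPM against at most 8.17 CPM in the other ZT22 libraries. Each of these genes was called, with no overlap between its groups.

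Sugar metabolism genes were called in both directions, 5 of 30 higher at ZT10 and 1 higher at ZT22, beside 6.24% of all genes. Gys2, the liver glycogen synthase, was at 75.9 to 124 CPM at ZT10 and at 19.0 to 43.0 CPM at ZT22 (log2 change 1.42 ± 0.20, adjusted p 0.000403). Ppp1r3c, which targets a phosphatase to glycogen, ran the other way. It was at 20.6, 30.3 and 36.4 CPM at ZT10 and at 123, 174 and 209 CPM at ZT22 (log2 change -2.61 ± 0.19, adjusted p 6.68e-07), 6.11-fold with no overlap. Pfkfb3, whose enzyme makes an activator of glycolysis, was 3.78-fold higher at ZT10 (16.95 to 23.4 CPM against 3.74 to 6.47 CPM, adjusted p 2.34e-06). Slc2a2, the glucose carrier of hepatocytes, rose at ZT10 by 1.25 on the log2 scale (adjusted p 0.0111), Slc37a4, the glucose-6-phosphate carrier, by 0.89 (adjusted p 0.00221) and Ugp2 by 0.74 (adjusted p 0.00257).

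Among 32 cholesterol genes 3 were higher at ZT10 and 3 at ZT22 (18.8%, beside 6.24% of all genes), and Pmvk was the 1 gene called among the 21 of synthesis. That count was 2 without ZT10 replicate 3 or ZT22 replicate 3 and 3 without ZT22 replicate 6, where 5 cholesterol genes in all were higher at ZT22. Pmvk, an early enzyme of that route, was 2.30-fold higher at ZT22 (adjusted p 0.00257). Abcg5 and Abcg8, the 2 parts of the pump that moves cholesterol into bile, rose together at ZT10. Abcg8 was at 53.9 to 84.9 CPM against 21.2 to 35.3 CPM (log2 change 1.06 ± 0.16, adjusted p 0.000732), and Abcg5 was 1.95-fold higher (adjusted p 0.00249), both without overlap. Of 27 bile acid genes 3 were called (11.1%), all higher at ZT10 and all carriers: Slco1b2 and Slc10a1, which take bile acids up from blood, and Abcc2, which exports conjugates into bile. Their folds were 1.52, 1.54 and 1.59, with adjusted p of 0.0483, 0.015 and 0.0397. This count fell to 1 when any of ZT10 replicates 1, 2, 3 or 4, or ZT22 replicates 4 or 6, was left out. Without ZT22 replicate 5 it stayed at 3, with Abcc2 lost and the carrier Slco1a4 gained. None of 14 genes of bile acid synthesis was called. Cyp7a1, its rate-limiting enzyme, was at 66 to 209 CPM at ZT10 and 9.55 to 83.0 CPM at ZT22, with a log2 change of 1.07 ± 0.43 (adjusted p 0.191).

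In fat oxidation 2 of 34 genes were higher at ZT10 and 3 at ZT22, which is 14.7% called, beside 6.24% of all genes tested. Cpt1a, the gate of fatty acids into mitochondria, was at 159 to 205 CPM at ZT10 and at 69.2 to 134 CPM at ZT22 (log2 change 0.80 ± 0.15, adjusted p 0.00357). Plin5, a lipid droplet coat gene, was 2.41-fold higher at ZT22 (adjusted p 0.000534). Acot1 was 2.00-fold higher at ZT22, but has near-identical relatives with which it may share reads. Ppara, the fatty acid receptor, was 1.82-fold higher at ZT10 (adjusted p 0.043). Its call was kept in only 4 of the 12 fits that left out 1 library (adjusted p up to 0.0912). ZT22 replicate 5 was among the libraries without which it was lost. In lipogenesis 1 of 24 genes was called (4.17%), Acacb. Its call was kept in 3 of these 12 fits (adjusted p up to 0.099) and was also lost without ZT22 replicate 5. Among 32 drug metabolism genes 2 were higher at ZT10 and 1 was higher at ZT22 (9.38% called). The latter was the P450 gene Cyp3a13, at 95.4 to 123 CPM at ZT10 and 110 to 243 CPM at ZT22 (1.51-fold, adjusted p 0.0295). Its call was kept in 5 of the 12 fits that left out 1 library (adjusted p up to 0.0671). Alas1, the first enzyme of heme synthesis, was at 179, 411 and 641 CPM at ZT10 and at 40.2, 103 and 155 CPM at ZT22 (log2 change 1.92 ± 0.40, adjusted p 0.0128). Por, which passes electrons to P450 enzymes, was 2.41-fold higher at ZT10 (203 to 388 CPM against 88.3 to 167 CPM, adjusted p 0.000565). Among 39 amino acid genes, of which 5.13% were called, 1 was higher at ZT10, the proline dehydrogenase gene Prodh (66.1 to 84.0 CPM against 46.8 to 61.3 CPM, adjusted p 0.0185). No gene was called among 79 ribosomal protein genes, whose log2 changes lay between -0.34 and 0.33, or among 19 core cleavage and polyadenylation factors.

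Among genes for protein folding in the ER more were called higher at ZT22 than at ZT10. Of 30 tested 13 were higher at ZT22, 2 were higher at ZT10 and 15 did not pass, beside 3.14% and 3.1% of all genes, and of the 17 chaperone genes 9 were called, all higher at ZT22. The median log2 change of the chaperones was -0.63, beside -0.005 over all genes tested, and all 17 values were below 0. Hspa5, the chaperone BiP, was at 564, 856 and 911 CPM at ZT10 and at 1135, 1301 and 1788 CPM at ZT22 (log2 change -0.83 ± 0.14, adjusted p 0.00162), without overlap. Calr, a calcium-binding lectin chaperone, was 1.67-fold higher at ZT22 (323 to 472 CPM against 551 to 742 CPM, adjusted p 0.00245). Creld2 was 2.63-fold higher at ZT22 (3.27 to 10.8 CPM against 13.2 to 28.8 CPM, adjusted p 0.00344). Against this direction ran Herpud1, of ER protein breakdown, at 278 to 356 CPM at ZT10 and 88.6 to 236 CPM at ZT22 (log2 change 1.03 ± 0.21, adjusted p 0.00766). Trib3, a pseudokinase induced by ER stress, was 5.63-fold higher at ZT10 (2.94 to 18.2 CPM against 0.701 to 2.14 CPM, adjusted p 0.0133). Without ZT22 replicate 5, which had the highest Hspa5 of all 12 libraries, 6 of the 17 chaperone genes and 8 of the 30 ER folding genes were called higher at ZT22, and Sdf2l1 was among those lost. The 13 also became 7 or 8 when ZT22 replicate 4 or ZT10 replicate 1, 2, 4 or 5 was left out. Replicates 1 to 3 on their own gave 1 chaperone gene and replicates 4 to 6 gave 8.

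Of 21 tested heat shock genes 7 were higher at ZT22, beside 3.14% of all genes, and none was higher at ZT10. The other 14 did not pass, and the median log2 change of the 21 was -0.46. Hsp90aa1, the inducible HSP90, was at 170, 199 and 283 CPM at ZT10 and at 319, 504 and 780 CPM at ZT22 (log2 change -1.31 ± 0.21, adjusted p 0.00162), without overlap. Hspb1, a small heat shock protein gene, was 2.20-fold higher at ZT22 with overlap (adjusted p 0.0293). Its call was kept in 5 of the 12 fits that left out 1 library (adjusted p up to 0.0676). The constitutive Hsp90ab1 changed by 1.43-fold (745 to 834 CPM against 833 to 1424 CPM, adjusted p 0.022). It was not called without ZT22 replicate 4 or 5 or ZT10 replicate 1 or 4. The count of 7 became 4 without any of ZT22 replicates 4, 5 or 6 or ZT10 replicate 2, and 3 without ZT10 replicate 4. Replicates 1 to 3 on their own gave 0 such genes, and replicates 4 to 6 gave 6.

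Markers of the other liver cell types were mostly alike at the 2 times. None of the tested markers of Kupffer cells (11), sinusoidal endothelial cells (10), stellate cells (9) or red blood cells (5) was called. Red blood cell markers summed to 1619 to 5814 CPM at ZT10 and to 2543 to 13130 CPM at ZT22, the highest being ZT22 replicate 3. Cholangiocyte markers summed to 17.3 to 23.3 CPM at ZT10 and to 26.8 to 49.3 CPM at ZT22. Of the 2 of them tested, Sox9 was called, at 9.36 to 14.1 CPM at ZT10 and 20.8 to 40.1 CPM at ZT22 (log2 change -1.36 ± 0.16, adjusted p 8.16e-05). The other had a log2 change of 0.12 and was not called. Most of the higher sum was Sox9, with medians of 11.5 CPM at ZT10 and 27.7 CPM at ZT22, beside 19.3 and 36.8 CPM for the sum. Cftr was at 0 in all 12 libraries. Markers of hepatocytes around the central vein summed to 4497 to 5804 CPM at ZT10 and to 3830 to 4330 CPM in 5 ZT22 libraries, with 2471 CPM in ZT22 replicate 5, and 1 of 10, Slc1a2, was called. In whole liver RNA, fewer cells of a type and less RNA per cell cannot be told apart.

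Most called genes had their highest or lowest level of the day at ZT10, and fewer had the opposite extreme at ZT22. Means over the 36 wild-type total RNA libraries at 6 times placed the highest level of 309 of the 374 genes (82.6%) at ZT10, beside 20.4% of all genes tested. They placed the lowest of 188 (50.3%) at ZT22, beside 14.3%. Of the 378 genes higher at ZT22, 322 (85.2%) were lowest at ZT10, beside 14.5% of all genes tested. Their peaks were spread, with 169 (44.7%) at ZT22, 134 (35.4%) at ZT2 and 56 (14.8%) at ZT18. Of all genes tested, 13.4%, 21.6% and 8.61% peaked at these times. Without ZT22 replicate 5 the peaks of these genes were 146 at ZT22 and 145 at ZT2. The libraries that called the genes also enter these means, and the choice of ZT10 and ZT22 as the compared times sets part of these shares. Some genes therefore showed less than their full range in this comparison. Nr1d1 peaked at ZT6, with a mean of 41.3 CPM, and at ZT10 it was at 60.1% of that level. Per2 peaked at ZT14 with 55.4 CPM and was lowest at ZT2 with 8.33 CPM. Hspa5 and Hsp90aa1 peaked at ZT18, with 1608 and 804 CPM, and at ZT22 Hsp90aa1 was at 64.9% of its peak. Npas2, Chka and Nfil3 peaked at ZT2. Dbp and Arntl had their highest and lowest means at ZT10, and Dbp fell from 97.6 CPM at ZT10 to 20.04 CPM at ZT14.

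**Figure D3:**
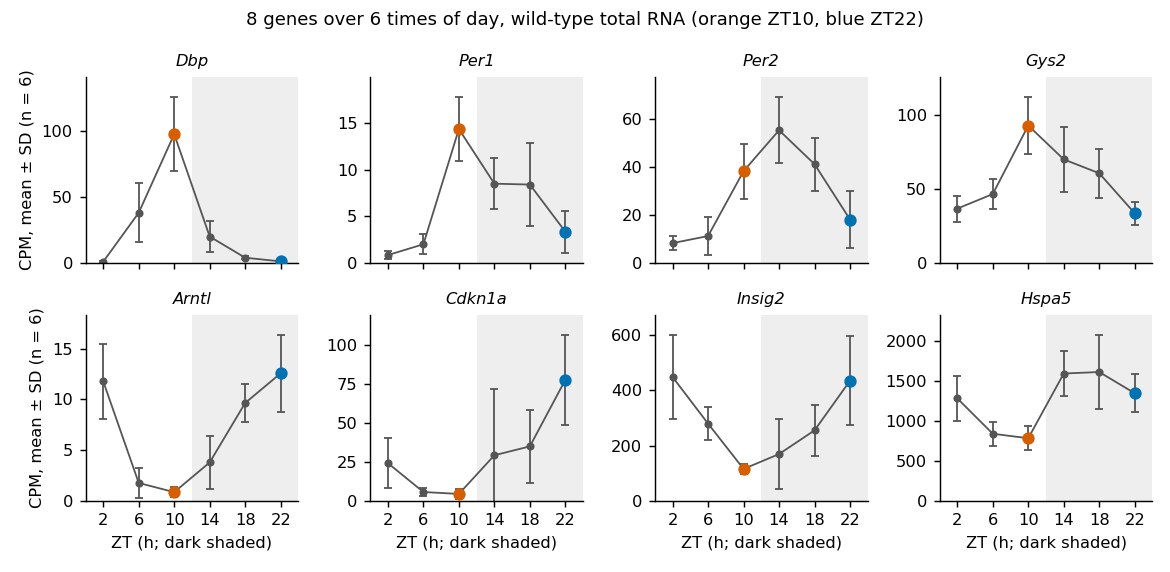
Mean ± SD of CPM (n = 6 libraries per time) of 8 genes over 6 times of day in wild-type total RNA, with the dark phase shaded, ZT10 in orange and ZT22 in blue. Dbp, Per1 and Gys2 are highest at ZT10 and Arntl, Cdkn1a and Insig2 lowest there, while Per2 peaks at ZT14 and Hspa5 at ZT18.

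At the level of polyadenylation sites 641 of 19651 sites tested (3.26%) were called, 294 higher at ZT10 and 347 higher at ZT22. Of these, 596 lay in 1 gene each, in 443 genes, and 368 of these genes were also called by their gene counts. In 102 of the 443 genes 2 or more sites were called. All 4 tested sites of Dbp rose at ZT10, with log2 changes between 5.61 and 6.68. The 3 tested sites of Per3 rose by 2.85, 3.53 and 3.66. The 6 tested sites of Hsp90ab1 had log2 changes between -0.66 and 0.70, and 1 of them was called. Within replicates 1 to 3 alone 100 sites were called and within replicates 4 to 6 alone 394, and without ZT22 replicate 5 there were 453.

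The share of a gene's counts at each site, its usage, rarely differed. Of 12956 sites in 4187 genes with several sites, 4 were called (0.0309%) in 3 genes, and 1170 had an unadjusted p under 0.05. In called genes the median difference in share between the times was 2.38 percentage points, beside 2.46 over all sites tested. The clearest case was Pnkd, whose protein resembles glyoxalase enzymes. Its early site at chr1:74287198-74287456 (mm10, plus strand), 2857 bases from the start of a gene of 69094 bases, took 34.2% to 42.9% of its counts at ZT10 and 11.4% to 18.5% at ZT22. The 2 groups were far apart, at 38.2% ± 3.69 and 14.8% ± 2.63 (SD, n = 6 each; adjusted p 0.000229). Its last site at chr1:74353516-74353692, where the RefSeq gene ends, took 58.3% ± 3.25 and 80.5% ± 2.93 (adjusted p 0.00102). By level, the last site was lower at ZT10 (log2 change -1.75, adjusted p 1.21e-05), while the early site had a log2 change of 0.09 (adjusted p 0.861). The summed Pnkd level was 47.3 CPM at ZT10 and 112 CPM at ZT22.

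Slc1a2, a glutamate carrier of hepatocytes around the central vein, used its last site at chr2:102790574-102790783 (plus strand) for 43.4% ± 3.99 of counts at ZT10 and for 27.3% ± 3.84 at ZT22 (adjusted p 0.0259). Rmnd5a, a gene of a ubiquitin ligase complex, used a site at chr6:71392358-71392403 (minus strand), 3724 bases before its end, for 3.72% ± 0.798 at ZT10 and 10.7% ± 1.38 at ZT22 (adjusted p 0.0201). In each of these sites the shares of the 6 and 6 libraries did not overlap. When 1 library was left out, the Slc1a2 site missed the threshold in 9 of 12 fits (adjusted p up to 0.102) and the Rmnd5a site in 7 of 12 (up to 0.0797), both at 0.0779 without ZT22 replicate 5. With the replicate number as a block the Rmnd5a site missed it too (adjusted p 0.0787). The 2 Pnkd sites stayed called in all 12 of these fits (adjusted p up to 0.00173 and 0.00615). Within replicates 1 to 3 no site was called (807 with an unadjusted p under 0.05), and the adjusted p of the early Pnkd site was 0.509, while within replicates 4 to 6 it was 0.0166. The log2 change in usage of that site was alike in the 2 sets, 1.35 and 1.37. Over the day the early Pnkd share was highest at ZT10, and at ZT14 it was 31.7% ± 10.6. In Bmal1-/- total RNA it stayed between 14.1% and 17.2% at all 6 times. The share of the Rmnd5a site ran the other way in wild-type nuclear RNA, at 16.3% ± 5.78 at ZT10 and 6.7% ± 3.94 at ZT22. In polysomal RNA its share was 5.98% ± 5.0 and 16.6% ± 17.3, and neither change was tested. The site counts of Rmnd5a averaged 157.5 per total RNA library, so its small shares rest on few counts.

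**Figure D4:**
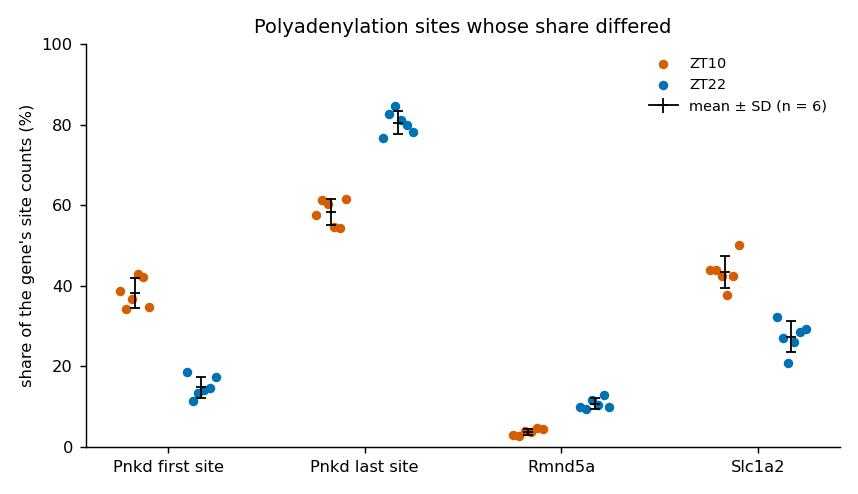
Share of the site counts of the gene (percent) taken by the 4 called polyadenylation sites in each wild-type total RNA library, orange for ZT10 and blue for ZT22, with mean and SD (n = 6) in black. The early Pnkd site takes 34.2% to 42.9% at ZT10 and at most 18.5% at ZT22, and the last site moves the other way.

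In Bmal1-/- liver no gene was called between ZT10 and ZT22. Of 12160 genes tested 0 passed the edgeR test, and 345 had an unadjusted p under 0.05. Genes called in the wild type had medians of 0.045 (higher at ZT10) and -0.042 (higher at ZT22) in Bmal1-/-, where the same genes had 0.75 and -0.85 in the wild type. A test of the difference between the genotypes called 197 of 12139 genes (1.62%), or 167 without the 2 libraries with Xist above 100 CPM, 1 of each genotype. The Bmal1-/- library kept its Y-linked RNA, with 92.9 CPM of Ddx3y. The 3′ end of Arntl was still counted in Bmal1-/-, at 12.2 ± 2.38 CPM at ZT10 and 11.6 ± 3.87 CPM at ZT22 (SD, n = 6), and as the deleted part is not given it does not check the genotype.

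In Bmal1-/- some of the genes were low at both times and others were high at both. Dbp was at 3.22 ± 1.17 and 2.47 ± 0.987 CPM in Bmal1-/-, above the wild-type ZT22 mean of 1.27 CPM and far below the ZT10 mean of 97.6 CPM. Its change differed by 5.82 ± 0.41 on the log2 scale (adjusted p 1.48e-09). Nr1d2 (4.76 and 5.52 CPM, difference 3.61 ± 0.38, adjusted p 1.15e-06), Per3 (3.70 and 3.32 CPM, difference 3.70 ± 0.47, adjusted p 1.38e-05) and Pcsk4 also stayed low at both times. Several genes of the ZT22 side were high at both times, while others were not: Hspb1 was at 1.60 and 1.80 CPM and Acacb at 7.08 and 5.56 CPM, below both wild-type means. Cdkn1a was at 221 ± 96.3 and 204 ± 92.6 CPM, above the highest wild-type mean, with a difference of -4.28 ± 0.63 (adjusted p 0.000346). Cry1 was at 53.7 and 64.1 CPM (difference -2.05 ± 0.22, adjusted p 9.66e-07), Npas2 at 7.86 and 8.69 CPM (difference -4.64 ± 0.51, adjusted p 1.44e-06) and Clpx at 180 and 179 CPM (difference -2.41 ± 0.27, adjusted p 1.44e-06). Tef lay between its wild-type levels, at 83.5 and 89.9 CPM (difference 2.21 ± 0.23, adjusted p 7.62e-07). Of 68 named genes tested and reported here, the change of 31 differed between the genotypes, beside the 1.62% of all genes. Apart from the clock list, these genes were named for a called change in the same wild-type libraries, which raises this count. For Hspa5 the difference was -0.75 ± 0.24 (adjusted p 0.142), for Alas1 1.40 ± 0.52 (adjusted p 0.262) and for Per2 0.92 ± 0.39 (adjusted p 0.361), none of them called. Clec2h, Hsp90aa1 and Uox lost their call without the 2 libraries (adjusted p 0.0625, 0.0745 and 0.0922).

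**Figure D5:**
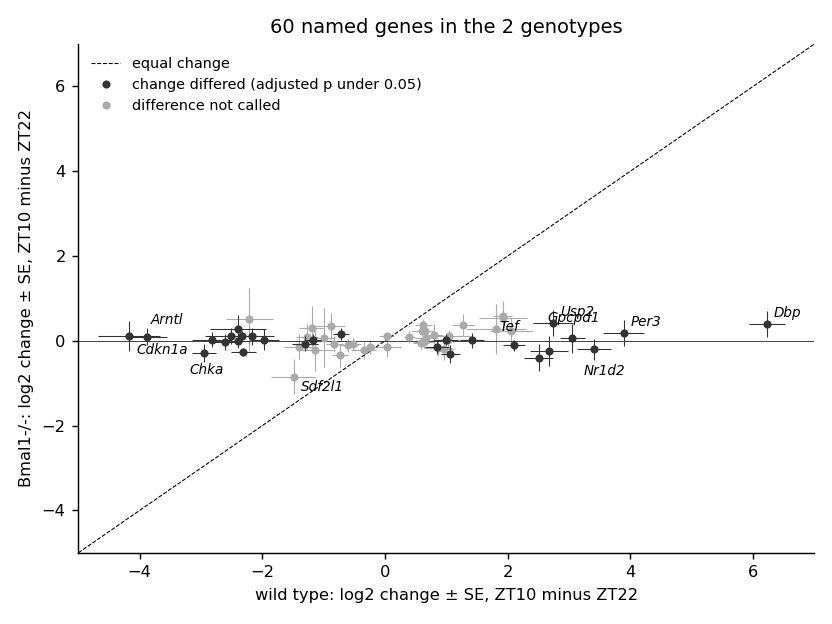
Log2 change from ZT22 to ZT10 with its SE in the wild type (horizontal) and in Bmal1-/- (vertical) for 60 named genes tested in both, dark where the change differed between the genotypes and grey where it was not called. Wild-type values run from -4.18 for Cdkn1a to 6.22 for Dbp, while Bmal1-/- values stay between -0.84 and 0.58.

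Nuclear and polysomal RNA of the wild type changed in the same direction as total RNA for most called genes. In nuclear RNA 257 of 11186 genes (2.3%) were called between the times and in polysomal RNA 103 of 10728 (0.96%). In each set 1 library had Xist above 100 CPM and almost no Y-linked RNA. These were nuclear ZT22 replicate 5, with the same number as the total RNA library, and polysomal ZT22 replicate 1. Without them 221 and 117 genes were called. Of the genes higher at ZT10 in total RNA, 343 of 346 tested in nuclear RNA and 328 of 340 in polysomal RNA had a change above 0, with medians of 0.58 and 0.70 on the log2 scale. For the genes higher at ZT22 the medians were -0.70 and -0.66. The total RNA libraries that chose these genes were not used for those values. Whether the fractions came from the same livers is not given and was not tested, so the values may not be independent. In a direct test of the difference from total RNA, 0 genes were called by edgeR in either fraction, with 254 (nuclear) and 244 (polysomal) at an unadjusted p under 0.05. That test took all libraries as separate samples, with no pairing by liver. Dbp had log2 changes of 5.63 in nuclear and 5.82 in polysomal RNA. Arntl had -4.69 and -5.82, and its levels in nuclear RNA were 2.81 and 76.5 CPM. The polysomal change of Per3 was 2.32, beside 3.805 in nuclear and 3.89 in total RNA, and its difference from total RNA was not called (adjusted p 1). The nuclear libraries held 3361979 to 5799542 counts and the polysomal ones 2837663 to 13068044, so fewer reads stood behind most of them.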

How the data were processed

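Total RNA of wild-type liver at ZT10 and ZT22 was measured by QuantSeq 3′ mRNA sequencing, from RNA extracted with TRIzol, per the labels' protocols. The authors deposited raw counts per gene and per polyadenylation site. STAR 2.4.2a, edgeR and HOMER, and the builds mm10 and GRCm38.p5, are named per the submitters' processing notes, and their roles and the read filters are not given in the sources used here. The raw counts were tested with edgeR 4.0.16 in R 4.3.3 (TMM, robust quasi-likelihood F test), for features averaging 10 or more counts over the libraries, with time as the only term, and Benjamini-Hochberg adjustment over all features tested with a threshold of 0.05. CPM values are counts divided by the library total. Usage was tested with the summed site counts of the gene plus 0.5 as offset, for sites with at least 5% of a gene of at least 50 counts. Sites were given to genes by RefSeq positions on the same strand, up to 1000 bases past the end; the strand of 2538 genes was taken from the site counts, which gave the right strand for 90.3% of genes of known strand. Differences between sets of libraries were tested as the interaction of set and time over 24 libraries. SE is the log2 change divided by the root of F. Alternatives were DESeq2 1.42.0, median-ratio size factors, other filters, a replicate block, a factor for the set of replicates, each set alone and each library left out. The members and lists were chosen with earlier results of these data known. Named were all clock genes, the 12 largest rises and falls with at least 50 counts and no overlap, the 2 largest called changes in each direction of every other list, the 5 most abundant called genes in each direction, and called usage sites. Libraries of a group are taken as separate samples; the labels do not name the animals, so p-values measure the spread between these samples. Replicate numbers are not said to mark shared animals and were not treated as pairs. Results of some genes chosen by this rule are not reported here.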

Additional observations from a re-analysis of the deposited data

Results flagged for a closer look

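In 7 of 146 groups of 6 libraries (a gene at 1 time) 1 library stood apart from the other 5 by more than Dixon's critical value for the gap over the range, where chance gives about 1 in 20. In 6 of these the library was ZT22 replicate 5, which went against its male label, and each time it was the highest. It had 5.2 CPM of Per3 (others 0.855 to 1.65 CPM), 44.9 CPM of Bhlhe40 (15.6 to 25.4 CPM), 262 CPM of Upp2 (88.4 to 145 CPM), 34.1 CPM of Nt5e (5.09 to 8.17 CPM), 12.6 CPM of Noct (1.73 to 3.7 CPM) and 1790 CPM of Hspa5 (1140 to 1360 CPM). In the remaining one ZT22 replicate 1 had 3.85 CPM of Rgs16, where the others had at most 0.265 CPM.

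The change from ZT22 to ZT10 differed between the wild type and Bmal1-/- in 31 of 68 named genes. The test was the interaction of genotype and time in edgeR with adjustment over all genes, of which 197 of 12139 (1.62%) were called. Apart from the clock list, the named genes were chosen for a called change in the same wild-type libraries, which raises their count. Values are the wild-type log2 change minus that of Bmal1-/-. It was above 0 for Per3 3.70, Bhlhe40 0.97, Nr1d2 3.61, Dbp 5.82, Tef 2.21, Gpcpd1 3.0, Clec2h 4.44, Usp2 2.32, Upp2 2.91, Nrg4 3.09, Pcsk4 2.90, Abcg8 1.37, Gys2 1.41, Trib3 2.98 and Uox 0.98. It was below 0 for Arntl -3.98, Clock -1.20, Npas2 -4.64, Cry1 -2.05, Nfil3 -2.43, Cdkn1a -4.28, Chka -2.67, Tubb2a -2.85, Ppp1r3c -2.59, Avpr1a -2.63, Clpx -2.41, Nt5e -2.68, Lgalsl -2.27, Insig2 -1.99, Hsp90aa1 -1.24 and Psen2 -0.89.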

How the results depend on the processing

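Beside the 752 genes called, 645 to 1121 were called, and 592 to 752 of the 752 among them, with median-ratio size factors, other filters on low counts, DESeq2 (1058), all 36 wild-type libraries, the replicate block (1121) or the set of replicates as a factor (1070), the last an alternative chosen after seeing the data, like the fits without libraries with Xist. Replicates 1 to 3 alone gave 235 genes. Leaving out 1 library gave 536 to 787 genes. The 641 sites became 998 with the replicate block, 100 within replicates 1 to 3, 394 within replicates 4 to 6, and 417 to 724 with 1 library left out. The 4 usage sites became 11 with the replicate block, 10 with the set as a factor, 0 within replicates 1 to 3 and 2 to 6 with 1 library left out. With the block, 280 genes differed from Bmal1-/- and 0 in either RNA fraction. The cause of these moves was not tested, but within 1 set fewer libraries enter the fit. Same-numbered libraries of the 2 times correlated between 0.0709 and 0.427 in their deviations from the group means. Of 6 ZT10 libraries, 4 correlated best with their own number. Libraries of unlike numbers had a mean correlation of 0.126 within a set (1 to 3 or 4 to 6) and of -0.177 between the sets. What same-numbered libraries share is not in the labels and was not tested.

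No named gene that was called changed direction in these alternatives, while some that were not called did, such as Csnk1d (log2 change -0.022 to 0.118 with 1 library left out) and Btrc (-0.117 to 0.123). Of 64 named genes called, 51 were called in all 12 fits with 1 library left out. Median-ratio size factors left the calls of all 70 tested as they were, DESeq2 added Per2, and the block lost Hspb1 and Noct. Usage with median-ratio size factors was not run, since the total of the gene is the offset. Genes under a mean of 10 counts, Npas2 and Fbxl21 among the clock genes, were not tested.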
